A study of Mus musculus with 12 samples.

Results

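Small nucleolar RNA (snoRNA) genes were followed across 4 groups of mouse bone marrow-derived macrophages, grown from C57BL/6 marrow and measured on Affymetrix whole-transcript arrays, 3 arrays in each group. The members were all genes whose symbol begins with Snord or Snora and that have a probe set naming no other gene, 51 of the 19937 genes tested. They comprised 31 box C/D genes (Snord) and 20 box H/ACA genes (Snora). Where a symbol had more than 1 probe set, the probe set was chosen by its mean log2 signal over the 12 arrays, the highest being kept. This applied to Snora3 and Snora21, and the height of a signal is given only as a description. The groups were Hdac3 -/- cells given LPS, Hdac3 -/- cells left untreated, Hdac3 +/- cells given LPS and Hdac3 +/- cells left untreated. LPS, the bacterial lipopolysaccharide sensed by Toll-like receptor 4, was given at 100 ng/ml for 4 h to cells at day 7 of culture. The cells called wild type in the labels carry a single intact Hdac3 allele, so every comparison of genotypes is between loss of both alleles and loss of 1. The labels say nothing of the age of the mice, how the alleles were deleted, or whether the 3 arrays of a group came from separate animals. P-values therefore measure the spread between arrays, which may be technical.

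Most snoRNAs of vertebrates have no promoter of their own. They lie in introns of host genes, are released when the spliced intron is trimmed by exonucleases, and stay in the nucleolus as RNA-protein particles. Box C/D RNAs guide 2′-O-methylation and box H/ACA RNAs guide pseudouridylation of ribosomal RNA, and a few members of each class take part in cleaving the ribosomal RNA precursor. Hdac3 is a histone deacetylase, the catalytic subunit of the NCoR and SMRT corepressor complexes. The RNA was purified on silica columns of a kind that retains short RNA poorly, so the signal of a snoRNA probe set can come from the mature RNA or from unspliced host RNA, and these cannot be told apart here.

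Of the 51 members, 50 lay inside another gene of the RefSeq table, which was taken as the host without a check of strand. Snord118, the U8 RNA that in frog cells is needed for maturation of the large-subunit rRNA, had no enclosing gene. The 40 hosts comprised 31 protein-coding genes and 9 long noncoding RNA genes, and 16 of them encode ribosomal proteins and hold 21 members. Annotated member lengths ran between 45 and 205 nt, with a median of 91 nt.

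Many snoRNA hosts start transcription inside a run of pyrimidines, the 5′ terminal oligopyrimidine tract that places their mRNAs under the control of growth signalling. The 30 bases around the annotated start (15 before and 15 from the start on) are shown for 7 hosts whose members carry the results below. They are given 5′ to 3′ on the strand of the gene, as RefSeq has them in build GRCm38.p6, with each CTTT in capitals.
Rpl27a, chr7:109519180-109519209, plus strand, host of Snora3: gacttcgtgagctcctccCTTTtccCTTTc
2410006H16Rik, chr11:62602862-62602891, plus strand, host of Snord49a and Snord49b: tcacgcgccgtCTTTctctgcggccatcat
Rack1, chr11:48800345-48800374, plus strand, host of Snord95 and Snord96a: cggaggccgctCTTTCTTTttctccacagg
Snhg12, chr4:132308663-132308692, plus strand, host of Snora16a and Snora44: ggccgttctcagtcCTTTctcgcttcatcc
Rps3, chr7:99483695-99483724, minus strand, host of Snord15a and Snord15b: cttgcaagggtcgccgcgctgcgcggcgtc
Nop56, chr2:130274397-130274426, plus strand, host of Snord57: aggtgtggtctccgcagtctggttccgcgc
Ncl, chr1:86359441-86359470, minus strand, host of Snora75 and Snord82: ggctccggggacggacgcgagctctggttg
The first 4 of these windows hold CTTT and the windows of Rps3, Nop56 and Ncl do not. The letters CTTT occurred in at least 1 start window of 11 of the 31 hosts that have a sequence in the table (35.5%), against 3731 of 27025 genes (13.8%). On the opposite strand they occurred in 2 of the 31 hosts (6.45%), against 13.4% of all genes. A match describes these letters and is not a mapped tract.

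Hdac3 itself followed the labels. Its log2 signal was 6.91, 7.25 and 7.18 in the LPS-treated and 7.39, 7.52 and 7.39 in the untreated Hdac3 -/- arrays, against 8.90, 9.02 and 8.66 in the LPS-treated and 9.42, 9.10 and 8.98 in the untreated Hdac3 +/- arrays. The 9 macrophage markers measured had mean log2 signals of 7.89 to 13.4, while T cell, B cell, dendritic cell, mast cell and eosinophil, erythroid and fibroblast markers had means between 2.53 and 6.25 and neutrophil and precursor markers between 3.47 and 7.15. After LPS 5 of the 6 neutrophil and precursor markers had a difference between genotypes below 0, from -0.66 (Ngp) to -0.12 (Mpo). The exception, S100a8, a neutrophil gene also made by activated myeloid cells, had the largest marker difference towards Hdac3 -/-. It had log2 signals of 8.99, 8.51 and 10.19 in Hdac3 -/- LPS arrays, against 5.96, 9.45 and 6.40 in Hdac3 +/- LPS arrays (log2 difference 1.96, adjusted p = 0.111, limma), and it differed by 2.04 untreated (adjusted p = 0.261). Between genotypes the macrophage marker Fcgr1, an Fc receptor gene, was lower after LPS (-2.41) and untreated (-1.45), and the granule gene Ngp was lower untreated (-1.18). After LPS 0 of the 27 markers of other cell types were called between genotypes, against 9.69% of all genes higher and 5.99% lower. At an unadjusted p under 0.05 there were 6 of the 27, against 28.9% of all genes. In each of these lists most differences were below 0. With LPS in Hdac3 +/- cells Cd3e (0.53), Cd79a (0.75) and Siglech (0.40) were called higher. The part of other cells in the snoRNA results was not tested. In bulk RNA, fewer cells of a type and less RNA per cell cannot be told apart. The spread of an array's own values, its interquartile range, was 3.50, 3.39 and 3.70 log2 units in the Hdac3 -/- LPS arrays and 3.74, 3.66 and 3.59 in the untreated Hdac3 -/- arrays, against 3.49, 3.19 and 3.20 in the Hdac3 +/- LPS arrays and 3.70, 3.52 and 3.80 in the untreated Hdac3 +/- arrays. Arrays 2 and 3 of the LPS-treated Hdac3 +/- cells thus stand apart as the narrowest of the 12.

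The members' own level moved with the groups and with that width. The median over the 51 members of the difference from each gene's 12-array mean was 0.21, 0.11 and 0.43 log2 units in the Hdac3 -/- LPS arrays and 0.06, 0.27 and -0.14 in the untreated Hdac3 -/- arrays, against -0.27, -0.35 and -0.44 in the Hdac3 +/- LPS arrays and 0.36, -0.26 and -0.07 in the untreated Hdac3 +/- arrays. All 3 LPS-treated Hdac3 -/- arrays lay above 0 and all 3 LPS-treated Hdac3 +/- arrays below it, and the untreated arrays of each genotype were spread over both sides. Array 1 of the untreated Hdac3 +/- cells had 43 members above their own mean and array 2 had 6, although both belong to 1 group. Across the 12 arrays the members' median and the array's interquartile range had a Pearson r of 0.65 and a Spearman rho of 0.59, given as a description since all points share the arrays' processing. The pooled standard deviation between replicate arrays was 0.35 log2 units for the median member and ran between 0.11 and 0.74.

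**Figure D1:**
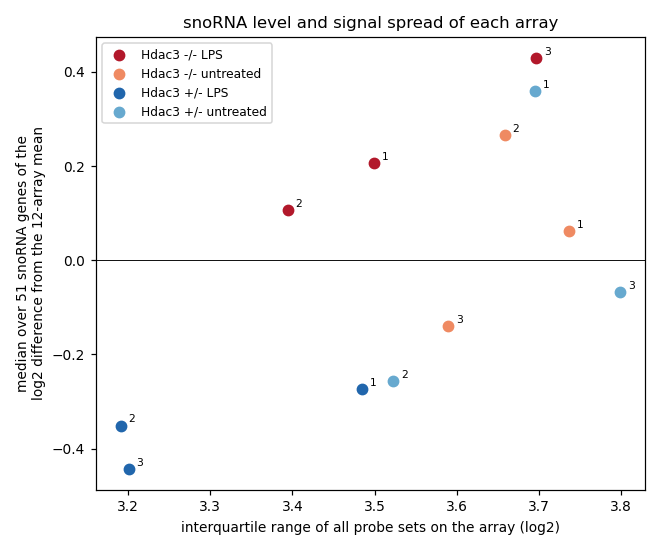
Median over 51 snoRNA genes of the log2 difference from each gene's 12-array mean (vertical axis) against the interquartile range of all probe sets on the same array (horizontal axis, log2), with 1 point per array, coloured by group and numbered by replicate. The LPS-treated Hdac3 +/- arrays lie lowest, at -0.27, -0.35 and -0.44, and arrays 2 and 3 of them are also the narrowest.

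After LPS, many snoRNA genes had higher signals in Hdac3 -/- than in Hdac3 +/- macrophages. Of the 51 members 22 were called higher and 0 lower (limma, Benjamini-Hochberg adjusted p under 0.05 over all genes), against a background of 9.69% of all genes higher and 5.99% lower. At an unadjusted p under 0.05 there were 30 members (58.8%), all with a difference above 0, against 28.9% of all genes. The median difference over the members was 0.59 log2 units, against -0.04 over all genes, and 44 of the 51 differences were above 0. In 33 members every Hdac3 -/- array lay above every Hdac3 +/- array, against 17.3% of all genes, and in 0 members every array lay below, against 14.5% of all genes. The count rests on few arrays. It was 6 without array 1 and 5 without array 3 of the Hdac3 -/- LPS cells, 13 without array 2 and 7 without array 3 of the Hdac3 +/- LPS cells, and 3 with the interquartile range of each array as a covariate, a fit in which 3.45% of all genes were higher. The median lay between 0.42 and 0.63 in these fits, and Snord15a, Snora3 and Snord55 were called in every alternative.

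**Figure D2:**
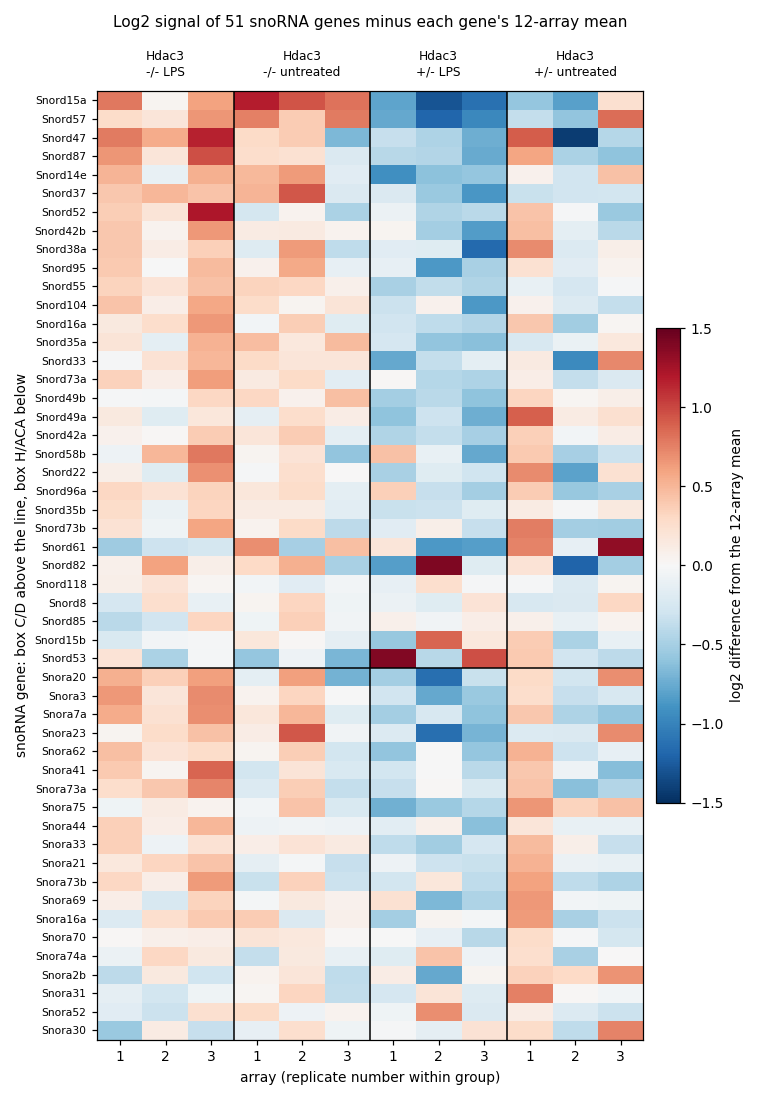
Log2 signal of each of the 51 snoRNA genes minus its own 12-array mean, shown as colour (blue below, red above), with arrays in columns by group and box C/D genes above the line, box H/ACA genes below it. In the Hdac3 -/- LPS columns 37, 35 and 44 genes lie above their own mean, against 9, 12 and 6 in the Hdac3 +/- LPS columns.

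Among the box C/D genes, Snord15a, which in human cells guides methylation of the large-subunit rRNA, differed most. Its log2 signal was 7.71, 6.96 and 7.52 in Hdac3 -/- LPS arrays, against 6.13, 5.63 and 5.80 in Hdac3 +/- LPS arrays. The groups do not overlap and the difference was 1.54 ± 0.257 (SE), a 2.92-fold higher signal (adjusted p = 0.00117, limma). Snord57, whose host Nop56 encodes a core protein of the box C/D particle, had log2 signals of 8.79, 8.69 and 9.17 in Hdac3 -/- LPS arrays, against 7.75, 7.32 and 7.54 in Hdac3 +/- LPS arrays. That is a difference of 1.35 ± 0.292 (SE, adjusted p = 0.00672, limma). Snord87, a box C/D RNA from an intron of the noncoding gene Snhg6, had log2 signals of 5.46, 4.99 and 5.76 in Hdac3 -/- LPS arrays, against 4.38, 4.35 and 4.04 in Hdac3 +/- LPS arrays. Its lowest Hdac3 -/- array lay above the highest Hdac3 +/- array, with a 2.21-fold difference (adjusted p = 0.0139, limma).

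Snord14e is a copy of U14, a box C/D RNA needed in yeast for processing of the small-subunit rRNA, and lies in the heat-shock cognate gene Hspa8. Its log2 signal was 9.04, 8.43 and 9.07 in Hdac3 -/- LPS arrays, against 7.62, 7.92 and 7.96 in Hdac3 +/- LPS arrays. The groups are separate and differ 2.02-fold (log2 difference 1.01 ± 0.242 SE, adjusted p = 0.0119, limma). Snord37, from the elongation factor gene Eef2, had log2 signals of 5.57, 5.66 and 5.60 in Hdac3 -/- LPS arrays, against 4.95, 4.60 and 4.29 in Hdac3 +/- LPS arrays. Its 3 Hdac3 -/- arrays lie close together, all above the Hdac3 +/- arrays (log2 difference 0.99, adjusted p = 0.011, limma).

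Among the box H/ACA genes, Snora20, in the chaperonin subunit gene Tcp1, had log2 signals of 5.25, 5.07 and 5.33 in Hdac3 -/- LPS arrays, against 4.20, 3.59 and 4.38 in Hdac3 +/- LPS arrays. The difference was 1.16 ± 0.311 (SE, adjusted p = 0.0217, limma). Snora3, in the ribosomal protein gene Rpl27a, had log2 signals of 7.83, 7.37 and 7.89 in Hdac3 -/- LPS arrays, against 6.90, 6.42 and 6.63 in Hdac3 +/- LPS arrays. No Hdac3 -/- array fell as low as the highest Hdac3 +/- array, and the signal was 2.07-fold higher (adjusted p = 0.00257, limma). These values are of the brighter of its probe sets, and the dimmer one is described at the end. Rpl27a is the host of the annotated gene, and the brighter probe set was not shown to lie in it. Snora7a, in the ribosomal protein gene Rpl32, had log2 signals of 7.48, 7.16 and 7.62 in Hdac3 -/- LPS arrays, against 6.42, 6.69 and 6.32 in Hdac3 +/- LPS arrays (log2 difference 0.95, adjusted p = 0.0181, limma).

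**Figure D3:**
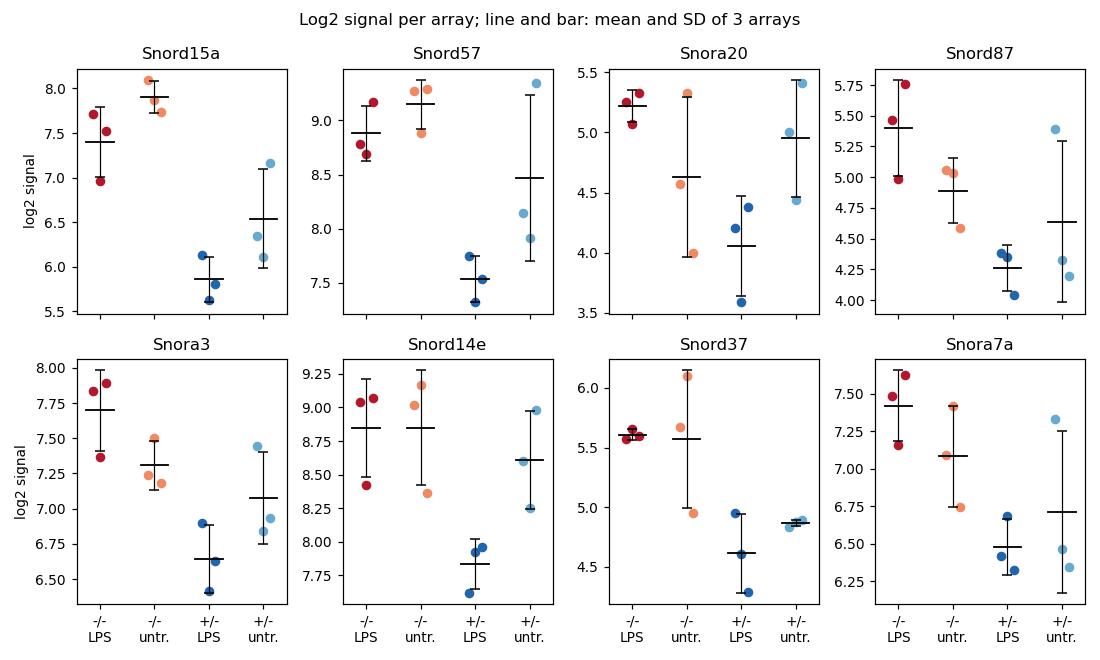
Log2 signal (vertical axis, a separate scale in each panel) of the 8 snoRNA genes named for the comparison after LPS, with 1 point per array, a line at the mean and a bar of 1 SD over the 3 arrays of each group. In each panel the Hdac3 -/- LPS points lie above the Hdac3 +/- LPS points, while the untreated groups overlap in all panels but those of Snord15a and Snord37.

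The other 14 members called higher after LPS differed by less. They were Snord52 (0.90), Snord42b (0.80), Snord95 (0.78), Snord55 (0.76), Snord104 (0.75), Snord16a (0.72), Snord35a (0.68), Snord73a (0.65), Snora75 (0.61), Snord49b (0.59), Snord42a (0.59), Snora44 (0.56), Snora21 (0.54) and Snord35b (0.45), each as log2 difference of Hdac3 -/- minus Hdac3 +/-. Snord55, a box C/D gene, had the smallest standard error of the 51 members. Its log2 signal was 7.64, 7.52 and 7.75 in Hdac3 -/- LPS arrays, against 6.83, 6.95 and 6.86 in Hdac3 +/- LPS arrays (adjusted p = 0.00116, limma). In 11 further members the groups did not overlap and the test was not passed. The one with the largest difference, Snord47 of the noncoding growth-arrest gene Gas5, had log2 signals of 5.83, 5.61 and 6.21 in Hdac3 -/- LPS arrays, against 4.70, 4.59 and 4.31 in Hdac3 +/- LPS arrays (log2 difference 1.35, adjusted p = 0.0535, limma). In the remaining 18 members the groups overlapped. Of the 7 members with a difference below 0, Snord53 had the lowest, -0.75 ± 0.374 (SE, adjusted p = 0.207, limma). The others lay between -0.28 and -0.02. Without array 2 of the Hdac3 +/- LPS cells, Snord53 was called lower, at -1.28.

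**Figure D4:**
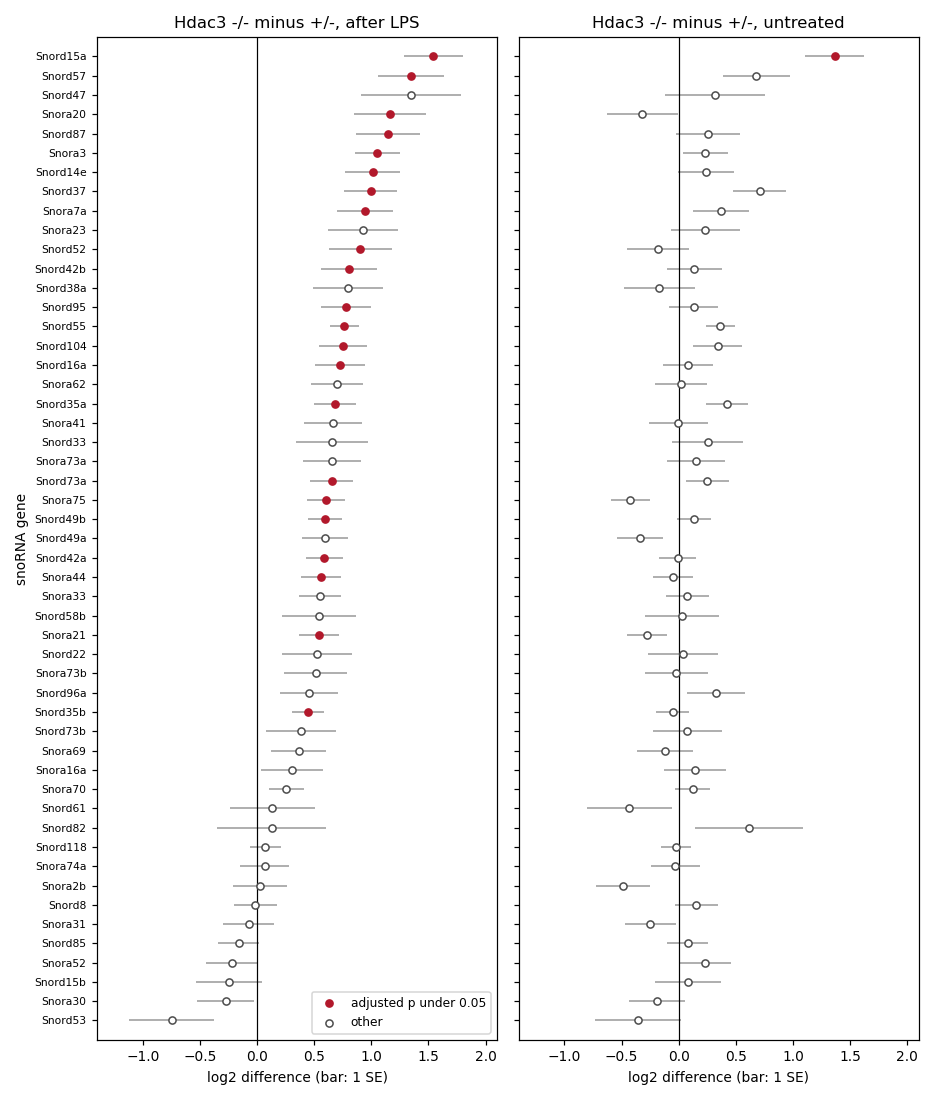
Log2 difference of Hdac3 -/- minus Hdac3 +/- for each of the 51 snoRNA genes after LPS (left) and untreated (right), with bars of 1 SE, in the order of the left panel. Filled points have an adjusted p under 0.05, which 22 genes reach after LPS and 1 gene, Snord15a, reaches untreated.

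Both classes and each kind of host held members called higher after LPS, beside 9.69% of all genes called higher. Among box C/D genes 16 of 31 were called higher, with a median difference of 0.65 log2 units, and among box H/ACA genes 6 of 20, with a median of 0.55. A test of the classes against each other was not made. Of the 21 members in ribosomal protein genes 11 were called higher (median 0.65), and of the 12 members in noncoding hosts 5 were (median 0.59, all 12 differences above 0). Of the 26 members with the higher mean signals 13 were called higher, and of the 25 with the lower ones 9. Snord33 and Snord35a share the host Rpl13a, whose snoRNAs have been studied in mammalian cells as mediators of lipotoxic and oxidative stress. Snord35a had log2 signals of 6.62, 6.27 and 6.94 in Hdac3 -/- LPS arrays, against 6.17, 5.83 and 5.79 in Hdac3 +/- LPS arrays (adjusted p = 0.0224, limma). Snord33 had 7.03, 7.26 and 7.54 in Hdac3 -/- LPS arrays, against 6.27, 6.69 and 6.90 in Hdac3 +/- LPS arrays. These groups do not overlap either, with an adjusted p of 0.187 (limma) for a log2 difference of 0.66.

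In untreated macrophages only Snord15a passed the test between genotypes, 1 of 51 members, against a background of 1.22% of all genes higher and 1.44% lower. Its log2 signal was 8.10, 7.87 and 7.74 in untreated Hdac3 -/- arrays, against 6.34, 6.10 and 7.16 in untreated Hdac3 +/- arrays. All Hdac3 -/- arrays lay above the Hdac3 +/- arrays, a 2.58-fold higher signal (log2 difference 1.37 ± 0.257 SE, adjusted p = 0.00969, limma). The call is lost without array 1 of the untreated Hdac3 -/- cells, where the adjusted p is 0.0615. At an unadjusted p under 0.05 there were 6 members (11.8%), a share near the 12.7% of all genes. The median over the members was 0.08 log2 units, against 0.01 over all genes, with 32 differences above 0 and 19 below, and it changed sign without array 2 of the untreated Hdac3 +/- cells (-0.09), without array 2 of the untreated Hdac3 -/- cells (-0.06) and with array weights (-0.02).

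In Hdac3 +/- macrophages most snoRNA genes had lower mean signals with LPS than without. Of the 51 members 7 fell and 0 rose, against a background of 15.5% of all genes lower and 9.6% higher, so that the share that fell is near that of all genes. The median over the members was -0.33 log2 units, against 0.08 over all genes, and 40 differences were below 0. In 11 members every LPS array lay below every untreated array, against 18.6% of all genes, and in 0 every array lay above, against 18.1%. With the replicate number as a block within each genotype 12 members fell, although the labels do not say that same-numbered arrays are pairs. Without single arrays the count was 3 (LPS array 3), 4 (LPS array 2), 4 (untreated array 1), 11 (LPS array 1) and 12 (untreated array 2), and with the arrays' interquartile range as a covariate it was 1 and the median 0.01.

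The member with the smallest p was Snora75 (U23), a box H/ACA RNA in an intron of the nucleolin gene Ncl. It had log2 signals of 4.96, 5.13 and 5.26 in Hdac3 +/- LPS arrays, against 6.34, 6.01 and 6.13 in untreated Hdac3 +/- arrays. All LPS arrays lie below all untreated ones, and the signal fell by 1.05 on the log2 scale (± 0.168 SE, adjusted p = 0.000476, limma), a call kept under every alternative tried. Snord49a and Snord49b, neighbours in 2410006H16Rik, fell together. Snord49a had log2 signals of 5.29, 5.59 and 5.17 in Hdac3 +/- LPS arrays, against 6.80, 6.02 and 6.13 in untreated arrays (adjusted p = 0.0031, limma), and Snord49b had 7.50, 7.59 and 7.40, against 8.32, 8.03 and 8.08 in untreated arrays (adjusted p = 0.00553, limma).

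Snord57 and Snord14e, the U14 copy, were also lower. Snord57 had log2 signals of 7.75, 7.32 and 7.54 in Hdac3 +/- LPS arrays, against 8.15, 7.91 and 9.35 in untreated Hdac3 +/- arrays (log2 difference -0.93, adjusted p = 0.0313, limma). Its untreated array 3 lies more than 1 log2 unit above the other untreated arrays, and without it the difference was -0.50 (adjusted p = 0.101). Snord14e had 7.62, 7.92 and 7.96 in Hdac3 +/- LPS arrays, against 8.60, 8.25 and 8.98 in untreated arrays (log2 difference -0.78, adjusted p = 0.0309, limma). Its call was lost in 7 of 19 alternatives and that of Snord57 in 5 of 19. With the interquartile range as a covariate the differences were -0.34 for Snord14e (adjusted p = 0.706) and -0.12 for Snord57 (adjusted p = 0.921), and leaving out any of LPS arrays 1, 2 and 3 or untreated arrays 1 and 3 ended the call of Snord14e (adjusted p of 0.0554 to 0.135). Snord42a, in Rpl23a, differed by -0.58 (adjusted p = 0.0185, limma), again with no overlap. For Snord61, in Rbmx, the groups overlapped at a difference of -1.15 (adjusted p = 0.0371, limma), with 4.09, 3.05 and 3.08 in LPS arrays, against 4.65, 3.79 and 5.24 in untreated arrays.

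In Hdac3 -/- macrophages the LPS comparison called 0 members higher and 0 lower by limma, against 3.69% of all genes higher and 5.18% lower. At an unadjusted p under 0.05 there were 3 members (5.88%), against 20.1% of all genes, and with array weights 6 were called higher and 1 lower. The median was 0.12 log2 units, against 0.02 over all genes, with 34 differences above 0. The smallest p belonged to Snord52, in the noncoding gene 1110038B12Rik, with log2 signals of 5.82, 5.65 and 6.66 in Hdac3 -/- LPS arrays, against 5.20, 5.51 and 4.97 in untreated Hdac3 -/- arrays. These do not overlap, and the difference was 0.82 ± 0.274 (SE, adjusted p = 0.0873, limma). Snora21, with Rpl23 as its annotated host, followed with a difference of 0.48 (adjusted p = 0.12, limma). Snora44, in Snhg12, had 0.39 (adjusted p = 0.226, limma). For Snora21 and Snora44 every LPS array lay above every untreated array. Snord57 and Snora75, which fell in Hdac3 +/- cells, had differences of -0.27 and -0.02 in Hdac3 -/- cells, with adjusted p-values of 0.717 and 0.979 (limma).

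The difference between both LPS responses was tested directly as Hdac3 -/- response minus Hdac3 +/- response. It called 0 members by limma, against 0.306% of all genes higher and 0.777% lower, while 14 members (27.5%) had an unadjusted p under 0.05, against 11.4% of all genes. The difference of responses was above 0 in 44 members, with a median of 0.50 log2 units, against -0.02 over all genes. Snora75 came closest, at 1.03 ± 0.238 (SE, adjusted p = 0.0589, limma), and Snora20 and Snora21 followed at 1.48 (adjusted p = 0.149) and 0.82 (adjusted p = 0.15). Snora75 had log2 signals of 5.62, 5.81 and 5.73 in Hdac3 -/- LPS and 5.64, 6.12 and 5.45 in untreated Hdac3 -/- arrays, beside the Hdac3 +/- values above. That the genotypes respond differently to LPS is thus not shown for any single snoRNA gene at this threshold. It was at most 2 without single arrays, 1 after quantile normalization and 3 with array weights.

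Members of the same host did not always move alike. In Rps3, Snord15a had the largest difference of all members after LPS, whereas Snord15b had log2 signals of 7.52, 7.70 and 7.72 in Hdac3 -/- LPS arrays, against 7.18, 8.61 and 7.90 in Hdac3 +/- LPS arrays. These overlap, with a difference of -0.25 (95% interval -0.87 to 0.37), and of 0.11 without array 2 of the Hdac3 +/- LPS cells. In Ncl, Snora75 fell with LPS in Hdac3 +/- cells, while Snord82 had 4.84, 7.07 and 5.48 in LPS arrays, against 5.88, 4.47 and 5.15 in untreated arrays. Its arrays spread over more than 2 log2 units within the LPS group, and the difference was 0.63 ± 0.476 (SE, adjusted p = 0.341, limma), or -0.0025 without LPS array 2. In Rack1, Snord95 was called higher after LPS between genotypes (0.78) and Snord96a was not (0.46, adjusted p = 0.259, limma). In Snhg3, Snora73a and Snora73b, copies of the U17 RNA that takes part in small-subunit rRNA processing, differed by 0.66 and 0.51 (adjusted p = 0.104 and 0.239, limma). The differences between members of a host were not tested.

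The hosts' own probe sets were measured for 28 members in 24 hosts. Between genotypes after LPS 3 of the 24 hosts were called higher (12.5%, near the 9.69% of all genes), namely Kansl2 (0.74), Rplp2 (0.53) and Rpsa (0.45). The hosts' median difference was 0.32 log2 units, with 20 of 24 above 0. At an unadjusted p under 0.05 there were 13 hosts (54.2%), against 28.9% of all genes. In 12 of the 24 hosts every Hdac3 -/- array lay above every Hdac3 +/- array, against 17.3% of all genes. In 1 host every array lay below, against 14.5% of all genes. The difference between hosts and members was not tested. Of the 12 members with a measured host that were called higher, 0 had a host called higher. Rps3 itself, the host of Snord15a, differed by 0.20 ± 0.135 (SE, adjusted p = 0.361, limma), Rpl27a, the host of Snora3, by 0.53 (adjusted p = 0.0522), and Hspa8, the host of Snord14e, by 0.10 (adjusted p = 0.707). Nop56, the host of Snord57, differed by 0.89 ± 0.303 (SE, adjusted p = 0.0647, limma), Tcp1 by 0.36 (adjusted p = 0.139) and Eef2 by 0.30 (adjusted p = 0.129). The member's difference exceeded its host's in 20 of 28 pairs, and across the pairs the differences had a Pearson r of 0.47 and a Spearman rho of 0.29. For LPS in Hdac3 +/- cells these were 0.59 and 0.53, and Ncl, the host of Snora75, differed there by -0.31 ± 0.236 (SE, adjusted p = 0.354, limma). Pairs share arrays, and some share a host, so these correlations are descriptions. Snora3 and Snora21 are among the pairs, although the probe sets used for them may lie outside the named hosts, as given at the end.

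**Figure D5:**
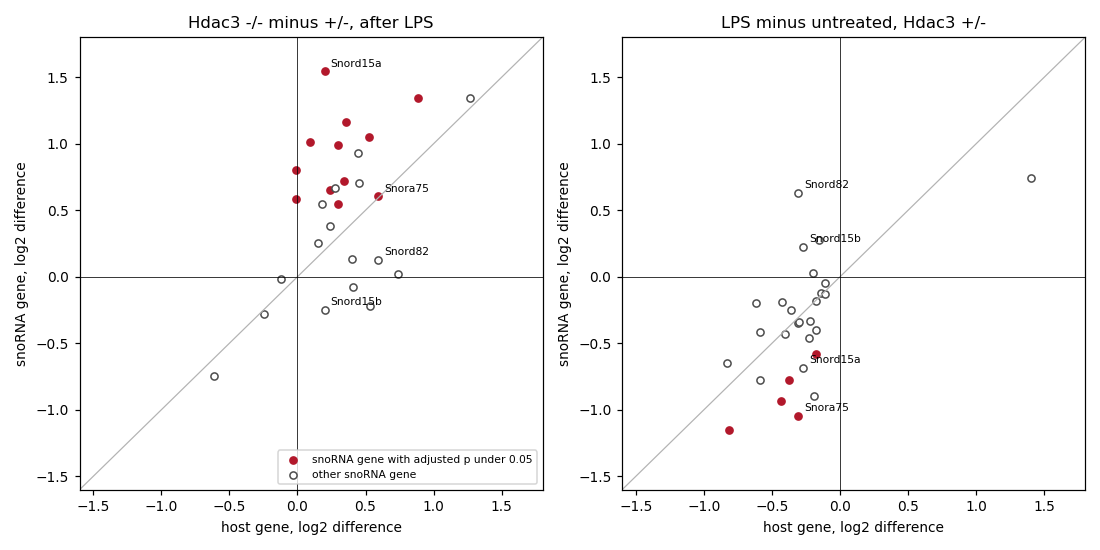
Log2 difference of each snoRNA gene (vertical axis) against that of its host gene (horizontal axis), with 1 point for each of 28 pairs and a grey line where both are equal, for Hdac3 -/- minus Hdac3 +/- after LPS (left) and LPS minus untreated in Hdac3 +/- cells (right). On the left 20 of the 28 points lie above the line, and members of 1 host, such as Snord15a and Snord15b, lie at different heights.

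Among genes of the proteins that bind, build and use snoRNAs, more were called higher than lower in Hdac3 -/- cells after LPS. Over all genes 9.69% were called higher and 5.99% lower. Some genes stand in more than 1 of the lists that follow, so their counts are not independent. Of 22 core and assembly proteins of the particles 6 were called higher (27.3%) and 1 lower (4.55%), with a median of 0.66 log2 units. They included Nop2, a nucleolar RNA methyltransferase (0.98), Znhit6, a box C/D assembly factor (0.97), and Nolc1, a nucleolar chaperone of snoRNA particles (0.95), while Tgs1, the cap methylase of small RNAs, was lower (-0.47). Fbl, the box C/D methyltransferase, had a difference of 0.23 (adjusted p = 0.595, limma) and Dkc1, the box H/ACA pseudouridine synthase, of 0.81 (adjusted p = 0.234, limma). Of 37 genes of RNA polymerase I and pre-rRNA processing 13 were higher (35.1%) and 1 lower (2.70%), with a median of 0.54. The higher ones included Dimt1 (1.28), Rrp1b (1.21), Wdr12 (1.08) and Wdr75 (0.97). Of 57 cytosolic ribosomal protein genes 11 were higher (19.3%) and 0 lower (median 0.26). At an unadjusted p under 0.05 there were 23 of the 57, against 28.9% of all genes. In a wider list of 59 measured snoRNA hosts 12 were higher (20.3%) and 1 lower (1.69%), with a median of 0.30. The higher ones were led by Rpl12 (1.53), Ptcd3 (1.16) and Snhg5 (0.97), and Kat2b was lower (-1.46).

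Of 23 genes of snoRNA trimming and RNA decay 5 were higher (21.7%) and 3 lower (13.0%) after LPS, against 9.69% and 5.99% of all genes. Tent4b, a noncanonical poly(A) polymerase that tags such RNAs for trimming, was higher (1.08, adjusted p = 0.000115, limma) and its relative Tent4a lower (-1.36, adjusted p = 6.51e-05). The exonuclease gene Xrn1 was lower (-1.68) and the exosome subunit gene Exosc1 higher (1.03). None of the 12 genes of nonsense-mediated decay, the pathway that degrades spliced transcripts of noncoding hosts such as Gas5, was called by limma (0 higher, 0 lower). At an unadjusted p under 0.05 there were 5 of the 12, against 28.9% of all genes. The lists were described by counts and were not tested as sets.

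Other short RNA genes on the same arrays were counted in the same way. Of 300 microRNA genes 2 were higher and 15 lower in Hdac3 -/- cells after LPS, with a median of -0.15 log2 units. The 15 lower calls are 5.0% of the list, near the 5.99% of all genes, while the 2 higher calls are 0.67%, against 9.69%. Of the 300 differences 235 were below 0. The median log2 signal of the list was 3.87, against 5.56 over all genes. Among 3 small Cajal body RNA genes 0 were called by limma (0 at an unadjusted p under 0.05), and Scarna17 had a difference of -0.37 (adjusted p = 0.247). Of 5 genes whose symbol begins with Rnu, Rnu12 was higher (0.52, adjusted p = 0.0159, limma). These 5 include Rnu3a, a gene of the box C/D RNA U3, which its symbol keeps out of the members. Among 7 other short RNAs Terc, the telomerase RNA, was lower (-0.54, adjusted p = 0.0424, limma), while Rn7sk, the 7SK RNA, had a difference of 0.02 ± 0.108 (SE). The difference between these classes and the snoRNA genes was not tested.

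The 5 members with the highest mean log2 signal were Snord14e (8.53), Snord57 (8.51), Snora52 (8.17), Snord49b, and Snora73b, the last with a mean of 7.97. The lowest was Snord118 (2.89). Signals of different probe sets do not compare as amounts of RNA. Snora52, in Rplp2, averaged 8.08 ± 0.294 in Hdac3 -/- LPS arrays and 8.30 ± 0.494 in Hdac3 +/- LPS arrays (SD, n = 3 each), a difference of -0.22 with a 95% interval of -0.71 to 0.27. Array 2 of the Hdac3 +/- LPS cells, at 8.87, lies above the other arrays of both groups, and without it the difference was 0.06. Its host Rplp2 was called higher by 0.53, the reverse of the usual order within pairs. Snord118 averaged 3.00 ± 0.0921 in Hdac3 -/- LPS arrays and 2.93 ± 0.198 in Hdac3 +/- LPS arrays, and its 12 values lay between 2.69 and 3.15.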

How the data were processed

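RNA of 12 macrophage samples was measured on 12 Affymetrix arrays, 3 in each of 4 groups. The deposited log2 values of 28193 probe sets come from the authors' processing, for which the submitters' processing notes name RMA and affy without versions, and were used unchanged. Depth does not apply to arrays, and their number limits the precision. Probe sets were named through the platform's annotation, updated by Entrez identifier (21553 matched, 0 changed). Of them 21640 had 1 symbol, 1321 several and 5232 none, and the brightest single-symbol probe set stood for each of 19937 genes. A limma model (limma 3.58.1, R 4.3.3) with 4 group means over the 12 arrays gave 5 contrasts, with Benjamini-Hochberg adjustment over all genes and a threshold of 0.05, and was tested on simulated data. Tables and plots used Python 3.11.15, pandas 2.3.3, numpy 2.4.6 and matplotlib 3.10.9.

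Named members were, for each contrast, up to 8 higher and 8 lower, taken by size of change from the called members whose groups do not overlap (the 3 with the smallest p where there were none), the 3 with the smallest p for the difference of responses, and the 5 with the highest mean signal. Snord47, Snord33, Snord35a, Snord55, Snord61, Snord53, Snord118 and the members set beside a partner from the same host were named after their values were seen. The members and gene lists were chosen with earlier results of these data known. Hosts are genes of the RefSeq GRCm38.p6 table that enclose a member. The annotated position of the member's gene was used, and where its probe set maps was not checked. Strand is not in that table, so the planned check of strand was not made. Of the lists, 2 old symbols that now name unrelated genes were left out.

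Same-numbered LPS and untreated arrays deviated together in Hdac3 +/- cells (r = 0.24, 0.33 and 0.22 over genes). They did not all do so in Hdac3 -/- cells (0.09, 0.20 and -0.12) or between genotypes (-0.47 to 0.16). Arrays of different number reached 0.51 (untreated Hdac3 -/- array 3 with untreated Hdac3 +/- array 2), and the labels give no pairing. A pairing is thus not established, and the replicate blocks are only alternatives. Alternatives were quantile normalization, a filter on dim genes, array weights, replicate blocks, the mean of a gene's probe sets and leaving out each array. The interquartile range as a covariate was added after seeing the data.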

Additional observations from a re-analysis of the deposited data

Results flagged for a closer look

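The LPS response differed between genotypes by the interaction test for 2 genes named beside the snoRNA genes. Mir155, a microRNA gene induced by Toll-like receptor signalling, rose by 2.42 log2 units in Hdac3 -/- cells and by 4.95 in Hdac3 +/- cells, a difference of responses of -2.53 (adjusted p = 0.00713, limma). Its log2 signal with LPS was 6.91, 7.65 and 6.24 in Hdac3 -/- arrays, against 8.92, 9.19 and 9.50 in Hdac3 +/- arrays. Tent4b, the poly(A) polymerase gene described among the trimming factors, differed with LPS by 0.32 in Hdac3 -/- cells (adjusted p = 0.179, limma) and by -0.54 in Hdac3 +/- cells (adjusted p = 0.009), a difference of responses of 0.86 (adjusted p = 0.0467). How far the results of these 2 genes rest on single arrays was not examined.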

How the results depend on the processing

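The higher calls after LPS numbered between 5 and 26 when single arrays were left out and the lower calls between 0 and 1, with the median between 0.48 and 0.67. With the interquartile range as a covariate, added after seeing the data, 3 members were higher after LPS, 1 fell with LPS in Hdac3 +/- cells, the median of that LPS response was 0.0094 in place of -0.33, and the median difference of responses was 0.28. Other settings gave 16 to 29 higher calls after LPS. For LPS in Hdac3 +/- cells, 3 to 12 members fell and 0 to 1 rose when single arrays were left out (median -0.44 to -0.13), and 12 fell with the replicate block within each genotype. No other count of calls moved by over 1.5 times under either replicate block. Array weights gave 6 higher and 1 lower members for LPS in Hdac3 -/- cells and 3 higher for the difference of responses, and quantile normalization gave 1 for that difference. Leaving out single arrays gave 0 to 1 higher for LPS in Hdac3 -/- cells (median 0.04 to 0.20), 0 to 2 higher between untreated genotypes (median -0.09 to 0.26) and 0 to 2 for the difference of responses (median 0.32 to 0.65). Snora3, Snord15a and Snord55 after LPS and Snora75 for LPS in Hdac3 +/- cells kept their calls under every alternative run. None of the members named by their change or p changed direction in the contrast they were named for, but 4 values that missed the threshold turned: without Hdac3 +/- LPS array 2, Snora52 (0.06) and Snord15b (0.11) after LPS and Snord82 for LPS in Hdac3 +/- cells (-0.0025), and without Hdac3 +/- LPS array 1, Snord118 after LPS (-0.0098). The cause of these changes was not tested.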

Other observations

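A further 22 probe sets carry a snoRNA symbol together with other symbols and are not among the 51 members. The 7 that name copies of Snord116, from the imprinted Prader-Willi region, had mean log2 signals of 2.40 to 4.94 and a median difference of -0.17 between Hdac3 -/- and Hdac3 +/- cells after LPS, with all Hdac3 -/- arrays below all Hdac3 +/- arrays in 1 and above in 0. The other 15 had a median difference of 0.73, between -0.32 and 1.28, with all Hdac3 -/- arrays above in 6 and below in 1. Over all genes tested 17.3% had all Hdac3 -/- arrays above and 14.5% all below, so the 1 of 7 Snord116 probe sets is near that share.

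Snora3 and Snora21 each have a second, dimmer probe set. That of Snora3 had log2 signals of 6.38, 7.04 and 7.17 in Hdac3 -/- LPS arrays, against 6.13, 6.31 and 6.16 in Hdac3 +/- LPS arrays, again without overlap. That of Snora21 had 6.34, 5.49 and 6.67 in Hdac3 -/- LPS arrays, against 4.93, 5.60 and 5.71 in Hdac3 +/- LPS arrays, and these overlap. With the mean of a gene's probe sets in place of the brightest, Snora3 kept its call after LPS and Snora21 did not. Where these probe sets map was not checked. By its identifier, the probe set used for Snora21 stands among those of members on chromosome 7, while Rpl23 lies on chromosome 11. The identifier of the dimmer probe set of Snora3 stands close to that of Snora23, whose host Ipo7 lies near Rpl27a on chromosome 7. For both genes the signal used may thus come from outside the named host.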
